A study of Mus musculus with 141 samples.

Results

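The genes described here are 9 members of the Notch pathway, chosen by name as rows of the read count table: the receptors *Notch1*, *Notch2* and *Notch3*, the ligands *Jag1*, *Jag2* and *Dll1*, and the targets *Hes1*, *Hey1* and *Nrarp*. They are 9 of the 17136 genes counted in single cells, of which 92 were kept and 49 left out. The cells came from the lungs of 1 male *ACID;R26tdTomato* mouse of 4 months (strain label 129SV), which carried 1 copy each of a Cre cassette knocked into the *Aqp5* gene and of a *tdTomato* reporter at *ROSA26* that Cre switches on for good. They were sorted as CD31- CD45- E-cadherin+ tdTomato+ and captured on a Fluidigm C1 chip, and the question behind the series was how alveolar type 1 (AT1) cells differ among themselves. The reporter also marks cells with earlier *Aqp5* expression. The labels call every cell alveolar type 1, but 47 of the 92 kept cells fell outside the type 1 class set below. Total reads per cell ranged from 91402 to 2170760 (median 419970).

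Notch signaling acts between touching cells. A ligand of the Jagged or Delta-like family on a sending cell pulls on a Notch receptor of the receiving cell, an ADAM protease and then γ-secretase cut the receptor, and its released inner part joins RBPJ and Mastermind-like proteins in the nucleus to switch on genes such as those of the HES and HEY families. In the airway, Notch signaling is known to keep cells secretory and to hold back the ciliated fate, and in the alveolus it is known for its part when AT2 cells give rise to AT1 cells. *Hes1* is also switched on by other signals, so it is not a readout of Notch alone.

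The receptors *Notch1* and *Notch2* were called in opposite directions in type 1 cells, so their promoters are shown first (RefSeq, GRCm38.p6, 250 bases before to 50 after the transcription start, 5′ to 3′ on the gene's strand). Capitals mark the GC box, the letters GGGCGG or CCGCCC on either strand, which is bound by SP family factors.
Notch1, chr2:26503773-26504072, minus strand: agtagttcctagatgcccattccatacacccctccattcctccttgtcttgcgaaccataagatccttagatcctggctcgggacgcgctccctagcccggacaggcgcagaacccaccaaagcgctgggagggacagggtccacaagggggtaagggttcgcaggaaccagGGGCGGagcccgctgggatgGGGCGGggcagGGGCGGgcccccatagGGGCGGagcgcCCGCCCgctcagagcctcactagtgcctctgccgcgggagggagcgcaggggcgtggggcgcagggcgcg
Notch2, chr3:98013288-98013587, plus strand: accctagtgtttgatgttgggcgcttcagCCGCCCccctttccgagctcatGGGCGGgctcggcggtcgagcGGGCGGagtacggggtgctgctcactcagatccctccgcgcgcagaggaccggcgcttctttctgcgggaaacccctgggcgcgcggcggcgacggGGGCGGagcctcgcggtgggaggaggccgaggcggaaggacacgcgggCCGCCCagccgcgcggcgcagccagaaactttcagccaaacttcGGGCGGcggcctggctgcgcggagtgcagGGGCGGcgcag
The *Notch1* promoter held 5 GC boxes and 68.3% G and C, and that of *Notch2* held 7 and 73%. Of 8 promoters listed for 7 members, 5 held a GC box, against 35.7% of 32851 promoters of the same length, while TGGGAA (or TTCCCA on the other strand), the core of the RBPJ site, was in 0 of 8 against 25.6% of all. TGGGAA and TTCCCA do not occur in the printed sequences, and a match is a description of the letters only. *Hes1* and *Hey1* are named only.

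Cells with a share of mitochondrial reads of 0.15 or more were left out, which kept 92 cells (median 553963 reads and 2947 genes). Levels are in CPM, the reads of a gene per 1000000 reads of the cell or, for a class, of its summed cells. *Ager* of at least 5000 CPM set 45 type 1 cells, *Sftpc* of at least 8000 CPM set 11 type 2 cells, and *Scgb1a1* of at least 50000 CPM divided the rest into 12 *Scgb1a1*-high and 24 *Scgb1a1*-low cells. No cell passed both the *Ager* and the *Sftpc* limit. The lowest type 1 cell had 9335 CPM of *Ager* and the next cell outside 1402, the lowest type 2 cell 25437 CPM of *Sftpc* and the next 7774, and the lowest *Scgb1a1*-high cell 174821 CPM of *Scgb1a1* and the next 41995. Type 1 cells were thus 48.9% of the kept cells (38.3 to 59.6%, exact binomial 95% interval). Median reads per cell were 468718 in type 1, 413806 in type 2, 960567 in *Scgb1a1*-high and 595068 in *Scgb1a1*-low cells.

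Marker lists described the classes, a cell being high in a list when at least 50% of its genes exceeded 100 CPM. All 45 type 1 cells were high in the type 1 list, 10 of 11 type 2 cells in the type 2 list and all 12 *Scgb1a1*-high cells in the club cell list. Those lists hold *Ager*, *Sftpc* and *Scgb1a1*, which set the classes, so they are no independent check. The *Scgb1a1*-low cells were mixed. Among them 12 were high in the ciliated list, with the ciliated cell regulator *Foxj1* at 184.7 CPM, and 6 in the basal list, with the basal cell keratin *Krt5* at 404.7 CPM in 6 of 6. They are called ciliated-marker and basal-marker cells below. All 6 basal-marker cells and 3 of the ciliated-marker cells were also high in the club list. The other 6 *Scgb1a1*-low cells fell in neither group, and 2 of them were high in the fibroblast list. Over all kept cells, 16 were high in more than 1 epithelial list. No doublet caller was run, and no 2 cells had identical counts.

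All cells come from 1 mouse in 1 condition and are 1 sample, so no test between classes was made and no p-value is given. In parentheses, a CPM is followed by its exact Poisson 95% interval and a share of cells by its exact binomial (Clopper-Pearson) one. These intervals hold counting error alone, since no molecular identifiers are stated and the reads may be PCR copies. Where 0 cells had a read, the share that this allows is given as 3 over the number of cells, a slightly lower limit than that of the exact interval. To set detection at equal depth, each cell was thinned to 90000 reads. A gene was called higher or lower in a class where the log2 ratio of its CPM to that in all other kept cells (1 CPM added to both) was at least 1 in size, also without the cell with the most reads. Of the 9 members, 5 had reads in at least 5 kept cells and entered this rule (*Notch1*, *Notch2*, *Jag1*, *Jag2* and *Hes1*), and the other 4 are given by their reads alone. A cell with 0 reads may still express the gene, because many transcripts are missed in a single cell.

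Some reads of abundant genes appeared in classes that should lack them. *Sftpc*, the surfactant protein gene of AT2 cells, had 252.8 CPM in type 1 cells, 0.151% of its type 2 level, with a read in 45 of 45 cells. *Scgb1a1* had 588 CPM there, 0.191% of its level in *Scgb1a1*-high cells. At the same share of its highest class, *Hes1* would stand at 5.04 CPM, *Jag1* at 0.308 CPM, *Notch1* at 0.207 CPM and *Notch2* at 0.170 CPM. Reads at or below these levels are read here as background. At equal depth *Foxj1* had a read in 2 and *Krt5* in 1 of the 45 type 1 cells, against 7 of 12 ciliated-marker cells for *Foxj1*.

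The heat map of members by cell shows how sparse these genes were. *Hes1* was found in every class, while the receptors and ligands stood out as single bright cells among cells with 0 reads.

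**Figure D1:**
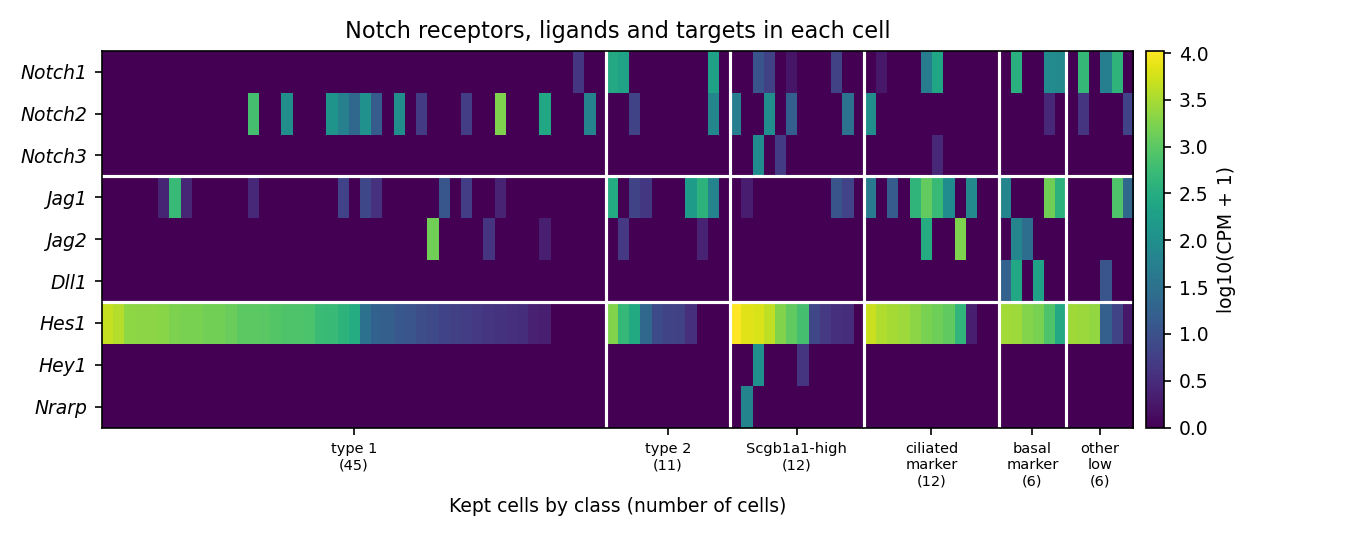
Each column is 1 of the 92 kept cells, ordered within its class by *Hes1*, and each row 1 of the 9 genes; colour is log10(CPM + 1). *Notch2* reads lie mostly in type 1 cells, *Notch1* reads outside them, and *Dll1* reads in the basal-marker cells and 1 other cell.

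The receptors divided by class. *Notch1* was nearly absent from type 1 cells and present in some type 2 and *Scgb1a1*-low cells, whereas *Notch2* was the receptor found in type 1 cells, in 13 of 45 of them. *Notch3* was limited to a few airway cells.

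*Notch1* (chromosome 2, 26457903 to 26516663, GENCODE vM21 on GRCm38) had 1 read in the 45 type 1 cells, 0.0432 CPM (0.00109 to 0.241), in 1 cell. At equal depth it was found in 0 of 45, which allows a share of up to 6.67%. The single read lies below the background level given above. In type 2 cells *Notch1* had 702 reads, 108.4 CPM (100.5 to 116.7), which came from 3 of 11 cells with 299, 223 and 180 reads, while the other 8 cells had 0. In *Scgb1a1*-low cells it had 920 reads, 58.2 CPM (54.5 to 62.1), in 9 of 24 cells. The 9 cells lay in all 3 groups of this class, 3 basal-marker cells (360, 86.8 and 76.1 CPM), 3 ciliated-marker cells (235, 48.6 and 0.828 CPM) and 3 other cells (485, 420.1 and 53.2 CPM). *Scgb1a1*-high cells had 15 reads of *Notch1* in 4 of 12 cells, 1.34 CPM (0.747 to 2.20), and 0 of 12 at equal depth, which allows a share of up to 25%.

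By the rule of size *Notch1* was lower in type 1 cells, where its level was 0.000885 of that in all other kept cells (counting interval 2.24e-05 to 0.00494). It was also lower in *Scgb1a1*-high cells (log2 ratio -3.98) and higher in type 2 cells (2.48). In *Scgb1a1*-low cells the log2 ratio of 1.67 fell to 0.96 without the top cell, so the gene was not called there. For chip columns 1 to 10 the log2 ratio was -4.83 in type 1 and 2.79 in type 2 cells, and for columns 11 to 20 it was -6.19 and 2.05. The type 2 value for columns 1 to 10 rests on 1 cell, and the call was lost there.

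*Notch2* (chromosome 3, 98013527 to 98150361) had 2059 reads in type 1 cells, 89.02 CPM (85.2 to 92.9), in 13 of 45 cells both before and after thinning (28.9%, 16.4 to 44.3%). The highest cell had 1224 reads (1760 CPM), the next 680.3, 248 and 119.9 CPM, and 32 cells had 0. Without the highest cell the class stood at 37.2 CPM. Outside type 1 cells the gene was found in 10 of 47 cells. These were 4 *Scgb1a1*-high cells with 74, 66, 48 and 22 reads (18.7 CPM), 2 type 2 cells (15.7 CPM, and 0.200 CPM without the higher, in which all reads but 1 lay), and 4 *Scgb1a1*-low cells with 35, 7, 1 and 1 reads (2.78 CPM). *Notch2* was called higher in type 1 cells (log2 ratio 2.95, and 1.72 without the top cell) and lower in *Scgb1a1*-low cells (-3.96). This ratio was 2.14 for chip columns 1 to 10 and 3.22 for the others. At equal depth *Notch2* was found in 2 of 11 type 2 cells (18.2%, 2.28 to 51.8%), 3 of 12 *Scgb1a1*-high cells (25%, 5.49 to 57.2%) and 2 of 24 *Scgb1a1*-low cells (8.33%, 1.03 to 27%). The intervals of these shares are wide and all overlap that of type 1 cells.

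*Notch3* (chromosome 17, 32120820 to 32166852) had 78 reads in all kept cells. Of these 73 lay in 1 *Scgb1a1*-high cell (chip column 17, row 34), 4 in another and 1 in a ciliated-marker cell, and type 1 and type 2 cells had 0. Of the 92 cells, 5 had a read of both *Notch1* and *Notch2*, where 17 had *Notch1* and 23 *Notch2*. Both had at least 10 reads in 1 of them, a type 2 cell with 201.5 and 68.1 CPM.

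**Figure D2:**
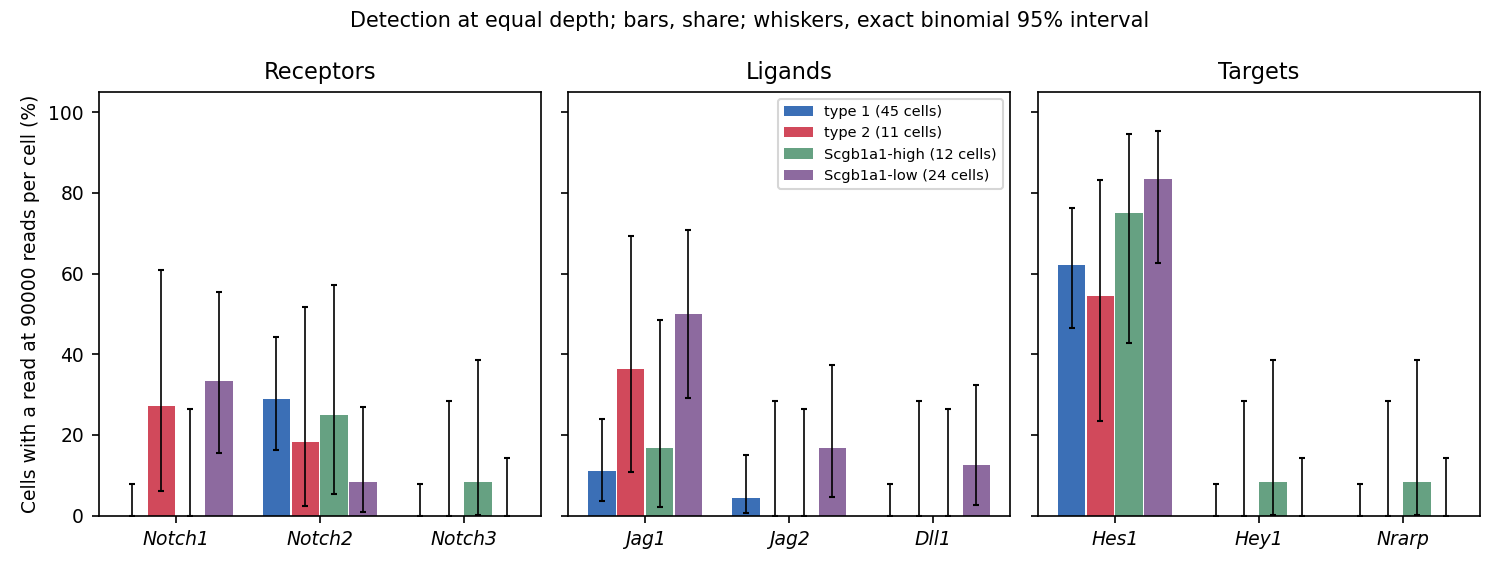
Bars give the share of cells in percent with at least 1 read after thinning to 90000 reads per cell, in 4 classes, for receptors, ligands and targets; whiskers are exact binomial 95% intervals. *Notch1* is at 0 in type 1 and *Scgb1a1*-high cells, *Notch2* is in 28.9% of type 1 cells, and *Hes1* is in over 50% of every class.

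Ligand reads were concentrated in the *Scgb1a1*-low cells. *Jag1* was found there in 12 of 24 cells, ciliated-marker and basal-marker cells among them, and also in 6 of 11 type 2 cells. *Dll1* was almost limited to basal-marker cells, and type 1 cells had ligand reads in quantity in 2 cells only.

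*Jag1* (chromosome 2, 137081456 to 137116644) had 2556 reads in *Scgb1a1*-low cells, 161.6 CPM (155 to 168). At equal depth 12 of 24 cells had a read (50%, 29.1 to 70.9%), against 5 of 45 type 1 cells (11.1%, 3.71 to 24.1%). In type 2 cells it was 4 of 11 (36.4%, 10.9 to 69.2%) and in *Scgb1a1*-high cells 2 of 12 (16.7%, 2.09 to 48.4%). The intervals of both overlap that of *Scgb1a1*-low cells. The ciliated-marker cells had 192 CPM in 7 of 12 cells, with 624, 275, 222, 66, 65, 16 and 3 reads. The basal-marker cells had 223 CPM in 3 of 6 cells, with 777, 277 and 55 reads, and the other cells 41.6 CPM in 2 of 6. Leaving out the top cell brought the basal-marker cells to 75.3 CPM, the ciliated-marker cells to 106.7 CPM and the other cells to 6.90 CPM. The order of the basal-marker and ciliated-marker cells thus turned with a single cell. In type 2 cells *Jag1* had 98.8 CPM (91.3 to 106.8) in 6 of 11 cells, of which 4 held 283, 204, 91 and 60 reads and 2 held 1 read each. *Scgb1a1*-high cells had 17 reads (1.51 CPM) in 3 of 12.

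Of the 551 *Jag1* reads of type 1 cells, 540 lay in 1 cell (528 CPM), and 9 further cells had 1 or 2 reads. Without that cell the class stood at 0.498 CPM, against the 0.308 CPM at which background reads of *Jag1* are set above. Of the 13 kept cells with only 1 to 3 *Jag1* reads, 11 sat in a chip column with a cell of at least 50 reads, where 68.5% of all kept cells sat, and 4 in such a chip row, where 44.6% sat. The part of neighbouring cells in these reads was not tested. *Jag1* was called higher in *Scgb1a1*-low cells (log2 ratio 2.41, and 1.94 without the top cell) and lower in type 1 (-1.96) and *Scgb1a1*-high cells (-5.05). With a mitochondrial limit of 0.10 both the *Scgb1a1*-low (1.38) and the type 1 call (-0.94) were lost, and the type 1 call was also lost in chip columns 11 to 20 and without the 16 cells high in more than 1 list. Among the subgroups *Jag1* was called higher in ciliated-marker cells (1.93, and 1.08 without the top cell), with 0.93 in chip columns 1 to 10 and 1.67 in the others.

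*Jag2* (chromosome 12, 112907819 to 112929776) rested on few cells. Of its 1027 reads in type 1 cells, 1024 were in 1 cell (1396 CPM), and the log2 ratio to the other cells turned from 1.47 to -3.85 without it. In *Scgb1a1*-low cells 4 of 24 cells had 510 reads, 2 ciliated-marker cells with 250 and 168 and 2 basal-marker cells with 74 and 18. Type 2 cells had 5 reads, *Scgb1a1*-high cells had 0, and *Jag2* was called lower in both. Its log2 ratio was -4.16 in type 2 cells, and in *Scgb1a1*-high cells it was at least 127.1-fold lower than in all others, with 3 reads over the class set for 0. This bound was 43.4-fold without the type 1 cell that held 1024 reads, and both calls were lost in chip columns 1 to 10. In columns 11 to 20 *Jag2* had reads in 4 cells and did not enter the rule.

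*Dll1* (chromosome 17, 15367354 to 15376872) had 539 reads in 4 cells, all of them *Scgb1a1*-low. Of these 3 were basal-marker cells with 286, 232 and 14 reads, and the other 3 basal-marker cells had 0. The fourth was 1 of the other *Scgb1a1*-low cells, with 7 reads. The basal-marker cells together had 107.2 CPM (98.3 to 116.7). *Dll1* had 0 reads in the 68 cells of the type 1, type 2 and *Scgb1a1*-high classes, and its level in *Scgb1a1*-low cells was at least 464-fold higher than the 3 reads that 0 allows over those classes, or at least 234-fold without the top cell. The 6 basal-marker cells also had the highest share of cells with any ligand, 6 of 6 at equal depth (54.1 to 100%).

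With 5 members in the rule, 1 was higher and 2 were lower in type 1 cells, where 15.1% of all 11634 genes tested were higher and 21% lower. In type 2 cells 1 member was higher (background 3.28%) and 2 were lower (41.6%). In *Scgb1a1*-high cells 0 were higher (2.47%) and 3 lower (41.6%), and in *Scgb1a1*-low cells 1 was higher (13.2%) and 1 lower (18.7%). In ciliated-marker cells 1 was higher (9.45%) and 1, *Notch2*, lower (35.8%), and in basal-marker cells 0 were higher (6.74%) and 1, again *Notch2*, lower (46.3%). With so few members these counts are near the background, and the values of each gene carry the description.

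*Hes1* (chromosome 16, 30064384 to 30067796), a transcriptional repressor and the most widely known Notch target, was found in all classes. It was highest in *Scgb1a1*-high cells as summed reads, most often high in *Scgb1a1*-low cells, and low in most type 2 cells. Type 1 cells spread from 0 to 4748 CPM with a median of 305 CPM, and their summed level was 867.5 CPM (856 to 880). *Scgb1a1*-low cells spread from 0 to 4979 CPM around a median of 1646 CPM (summed 1670 CPM, 1650 to 1690). *Scgb1a1*-high cells reached from 0 to 10568 CPM with a median of 895 CPM (summed 2644 CPM, 2614 to 2674). Type 2 cells had a median of 5.79 CPM. The background level of 5.04 CPM given above is one of summed reads, so this median per cell cannot be set against it. The highest type 2 cell had 1825 CPM, and the summed 282.5 CPM of the class (270 to 296) fell to 100.9 CPM without that cell. The ranges of all 4 classes overlapped.

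Within classes the cells fell into a high and a low part, as the plot of *Hes1* by class shows. At least 10 CPM was reached in 28 of 45 type 1, 4 of 11 type 2, 7 of 12 *Scgb1a1*-high and 19 of 24 *Scgb1a1*-low cells. The medians of those cells were 998, 382, 4320 and 2120 CPM. A few of them stood just above this line, and at least 100 CPM was reached in 23 type 1, 3 type 2, 7 *Scgb1a1*-high and 18 *Scgb1a1*-low cells. All 6 basal-marker cells (lowest 266 CPM, median 1771 CPM) and 9 of 12 ciliated-marker cells lay above this line. At least 1000 CPM was reached in 14 type 1, 1 type 2, 6 *Scgb1a1*-high and 15 *Scgb1a1*-low cells. At equal depth *Hes1* was found in 28 of 45 type 1 cells (62.2%, 46.5 to 76.2%), 6 of 11 type 2 (54.5%, 23.4 to 83.3%), 9 of 12 *Scgb1a1*-high (75%, 42.8 to 94.5%) and 20 of 24 *Scgb1a1*-low cells (83.3%, 62.6 to 95.3%). All 4 intervals overlap. *Hes1* was called lower in type 2 cells (log2 ratio -2.42). Its ratio was -0.99 in type 1 and 1.31 in *Scgb1a1*-high cells, or 0.85 without the top cell, so it was not called in either.

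**Figure D3:**
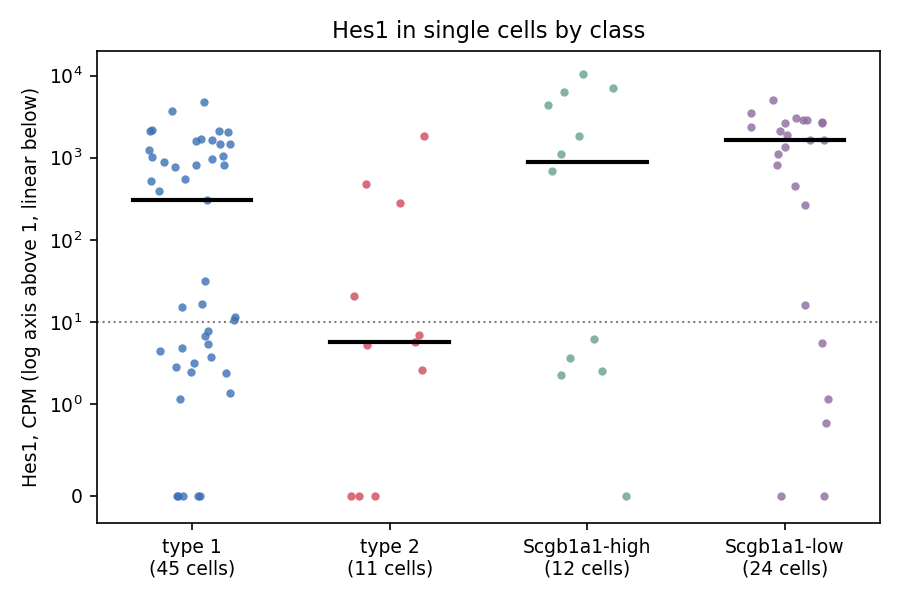
Each point is 1 cell, with its *Hes1* level in CPM on an axis that is linear below 1 and logarithmic above; black bars are class medians and the dotted line marks 10 CPM. The medians are 305, 5.79, 895 and 1646 CPM in type 1, type 2, *Scgb1a1*-high and *Scgb1a1*-low cells, and 34 of the 92 cells lie under 10 CPM.

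*Hes1* is also an early response gene, and the 9 genes of the dissociation stress list differed between the classes. Their summed level had a median per cell of 1111 CPM in type 1, 3224 in type 2, 3047 in *Scgb1a1*-high and 5864 CPM in *Scgb1a1*-low cells, and the most abundant gene of the list was *Fos* in all classes but type 1, where it was *Dusp1*. The list was above 100 CPM for 5 of its 9 genes in type 1 cells and for 9 of 9 in the other classes. Across cells, the Spearman correlation of *Hes1* with this sum was 0.172 in type 1 (45 cells), 0.569 in type 2 (11 cells), 0.245 in *Scgb1a1*-high (12 cells) and -0.017 in *Scgb1a1*-low cells (24 cells). Cells share the same chip and depth enters both measures, so these are descriptions. The part of the stress response in the *Hes1* levels was not tested.

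*Hey1* (chromosome 3, 8663359 to 8667256), a repressor related to *Hes1*, had 88 reads, 85 of them in 1 *Scgb1a1*-high cell and 3 in another. The cell with 85 reads was the one that held 73 of the 78 *Notch3* reads, and it also had 8 reads of *Notch1*. *Nrarp* (chromosome 2, 25180758 to 25183339), a feedback inhibitor that Notch switches on, had 63 reads in 1 *Scgb1a1*-high cell, which passed as high in the ciliated list besides the club list and had 7035 CPM of *Hes1*. Both genes had 0 reads in type 1, type 2 and *Scgb1a1*-low cells.

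Ligand and receptor were then counted in the same cells. With the 3 ligands pooled and the 3 receptors pooled, the *Scgb1a1*-low class held more cells with a ligand than with a receptor, and type 1 cells the reverse. At equal depth a ligand was found in 16 of 24 *Scgb1a1*-low cells (66.7%, 44.7 to 84.4%) and in 7 of 45 type 1 cells (15.6%, 6.49 to 29.5%). A receptor was found in 9 of 24 (37.5%, 18.8 to 59.4%) and 13 of 45 (28.9%, 16.4 to 44.3%). Within each class the ligand and receptor intervals overlap. The 6 other *Scgb1a1*-low cells went against their class, 2 with a ligand and 3 with a receptor. Type 2 cells had 4 of 11 with a ligand and 4 of 11 with a receptor, and *Scgb1a1*-high cells 2 of 12 and 4 of 12.

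Of the 7 type 1 cells with a ligand, 4 also had a receptor, but the ligand in each of those 4 was a single *Jag1* read before thinning. Counting only genes with at least 10 of all reads in a cell, 2 type 1 cells had a ligand, 10 a receptor and 0 both, which allows a share of up to 6.67% with both. In *Scgb1a1*-low cells the same count gave 15 with a ligand, 9 with a receptor and 7 with both. The most frequent pair was *Jag1* with *Notch1*, both with at least 10 reads in 7 cells, 5 *Scgb1a1*-low and 2 type 2. At equal depth, 0 of 12 ciliated-marker and 0 of 6 basal-marker cells had a receptor without a ligand.

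**Figure D4:**
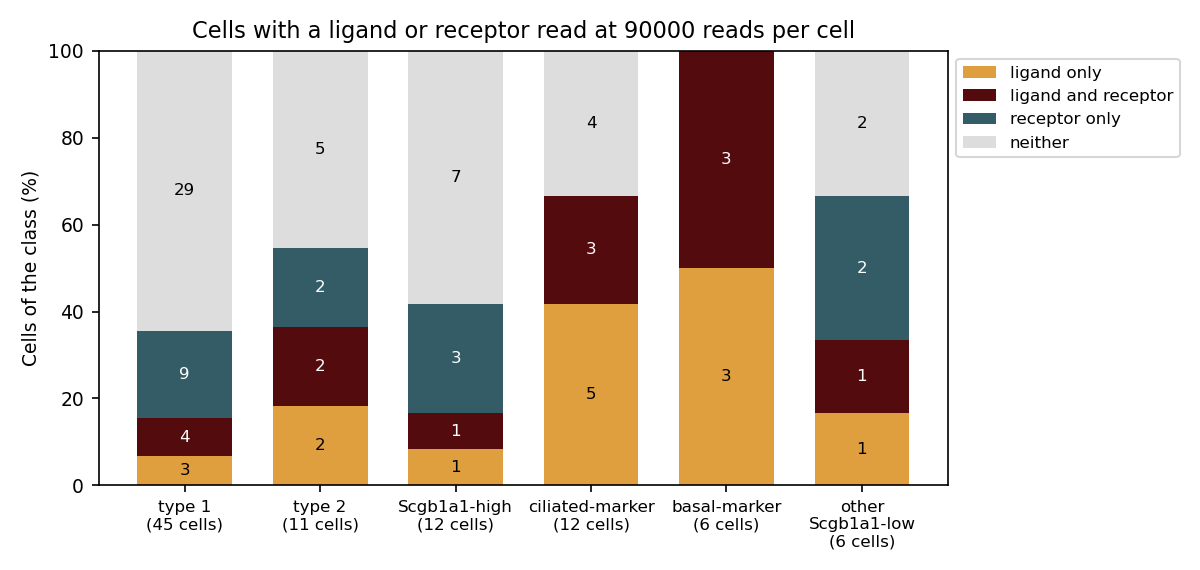
Bars divide the cells of each class, in percent, into those with a ligand read only, both a ligand and a receptor read, a receptor read only and neither, at 90000 reads per cell; the numbers in the bars are cells. Type 1 cells hold 9 cells with a receptor only and 3 with a ligand only, while ciliated-marker and basal-marker cells hold 5 and 3 with a ligand only and none with a receptor only.

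The other genes of the pathway came from lists of 58 genes, of which 44 are in the count table and 38 entered the rule of size. In type 1 cells 7 of 38 were higher (18.4%, background 15.1%) and 11 lower (28.9%, background 21%), with a median log2 ratio of -0.38 against -0.10 over all genes tested. The 7 higher genes were 4 that cut the receptor or form the cutting complex (*Adam10*, *Adam17*, *Psen2*, *Ncstn*), 2 of the nuclear complex (the coactivator *Maml2* and the corepressor *Spen*) and *Dnm2*, a dynamin of endocytosis. In chip columns 1 to 10 the log2 ratios of *Maml2* (0.74) and *Dnm2* (0.60) were under the limit of 1. In columns 11 to 20 they were 5.65 and 2.49. Among the lower genes, *Maml3* (-0.28) and *Lfng* (-0.44) fell short of that size in columns 1 to 10. The 11 lower genes are in the heat map of pathway genes, and *Rfng* and *Numbl* are those not described below.

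The other classes had more lower than higher genes of these lists, like the background. Type 2 cells had 3 higher (7.89%, background 3.28%), *Maml1*, *Dtx2* and *Cdkn1a*, and 21 lower (55.3%, background 41.6%). *Scgb1a1*-high cells had 1 higher (2.63%, background 2.47%), *Dtx4*, and 18 lower (47.4%, background 41.6%). *Scgb1a1*-low cells had 8 higher (21.1%, background 13.2%), *Aph1b*, *Psenen*, *Mib1*, *Lfng*, *Myc*, *Cdkn1a*, *Foxj1* and *Myb*, and 9 lower (23.7%, background 18.7%), *Rbpj*, *Maml1*, *Maml2*, *Adam10*, *Psen2*, *Ncstn*, *Aph1a*, *Dtx2* and *Dtx4*. Their median log2 ratio was 0.51 against 0.17 over all genes. Ciliated-marker cells had 7 higher (18.4%, background 9.45%) and 16 lower (42.1%, background 35.8%), *Furin*, *Pofut1*, *Itch*, *Fbxw7* and *Ep300* among the lower. *Foxj1*, 1 of the 7, belongs to the list that chose these cells, so its call was set by that choice. Basal-marker cells had 1 higher (2.63%, background 6.74%) and 22 lower (57.9%, background 46.3%), *Epn1*, *Poglut1* and *Numb* among the lower. *Snw1*, *Mib2* and *Dtx3* were lower in type 2 cells.

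*Adam10*, the protease that makes the first ligand-dependent cut, had 261.8 CPM in type 1 cells, with reads in 18 of 45 and 226 CPM without the top cell. It had 0.772 CPM in type 2, 47.5 CPM in *Scgb1a1*-high (0.194 without 1 cell) and 30.1 CPM in *Scgb1a1*-low cells (3.57 without 1 cell), a log2 ratio of 3.07 for type 1. Presenilin 2 (*Psen2*), a catalytic subunit of γ-secretase, had 74.9 CPM in type 1 cells (9 of 45, and 49.1 CPM without the top cell). It had 0 reads in the 11 type 2 cells, which allows a share of up to 27.3%, above the 20% of type 1 cells. *Scgb1a1*-high cells had 9.70 CPM of *Psen2* (0.0977 without 1 cell) and *Scgb1a1*-low cells 3.41 CPM (0.199 without 1 cell). *Aph1b*, of another subunit, was higher in *Scgb1a1*-low cells, where all its 1736 reads lay in 5 of the 12 ciliated-marker cells, and lower in type 1 cells. *Aph1b* and *Aph1c* are near copies of each other, and reads may be divided between them.

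*Rbpj*, the DNA-binding partner of the cleaved receptor, had 85.6 CPM in type 1 cells (14 of 45), 125.1 CPM in type 2 cells (3 of 11) and 35.9 CPM in *Scgb1a1*-high cells, all of it from 1 cell. Without the top cell of each class type 1 cells had 41.6 CPM and type 2 cells 39.3 CPM, which turned their order. In *Scgb1a1*-low cells *Rbpj* had 3.67 CPM, with reads in 7 of 24 (0.852 without the top cell), and was called lower. *Maml2* had 29.01 CPM in type 1 cells (9 of 45, and 17.8 without the top cell). It had 0 reads in the 11 type 2 cells, which allows a share of up to 27.3%. *Maml1* had 41.2 CPM in type 2 cells (3 of 11, and 16.5 without the top cell) and 2.20 CPM in type 1 cells (0.480 without the top cell). *Maml3* had 964 of its 965 *Scgb1a1*-low reads in 3 ciliated-marker cells, 815 of them in 1 cell (145.7 CPM, and 23.8 without it).

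*Mib1* and *Lfng*, of the lists for ligand endocytosis and receptor glycosylation, were higher in *Scgb1a1*-low cells. In that class their log2 ratios were 2.99 and -0.18 for chip columns 1 to 10, and 0.58 and 5.75 for columns 11 to 20. Each call was thus lost in 1 part of the chip. *Mib1*, a ubiquitin ligase that ligands need for their endocytosis, had 105.9 CPM in *Scgb1a1*-low cells (9 of 24). Of its 1675 reads there, 1185 lay in 2 of the 6 other cells. It had 40.1 CPM in type 1 cells (14 of 45, and 25.1 without the top cell). *Lfng*, the Fringe glycosyltransferase that sets which ligands a receptor responds to, had 347 of its 354 reads in 6 of the 12 ciliated-marker cells (52.4 CPM, and 16.3 without the top cell). It had 0 reads in the 45 type 1 and 11 type 2 cells, at least 81.4-fold lower in type 1 than in all others, or at least 24.8-fold without the top cell. *Dlk2*, a non-canonical ligand, had 162 reads in 2 *Scgb1a1*-low cells, 160 of them in 1 cell.

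Among other reported targets, *Ccnd1* (cyclin D1) was lower in type 1 cells, with a log2 ratio of -6.98. It had 0.648 CPM in type 1 cells (15 reads), against 245 CPM in type 2, 206 CPM in *Scgb1a1*-high and 191 CPM in *Scgb1a1*-low cells. At equal depth 3 of 45 type 1 cells had a read, against 7 of 11, 9 of 12 and 13 of 24. *Myc* had 0 reads in type 1 cells, at least 161-fold lower than in all others (at least 93.01-fold without the top cell). It was also called lower in type 2 (2.16 CPM) and *Scgb1a1*-high cells (1.78 CPM), both at 0 without the top cell of the class. *Scgb1a1*-low cells held 664 reads of *Myc*, against 34 in all other kept cells. Basal-marker cells had 124.5 CPM (5 of 6, and 80.7 CPM without the top cell). *Cdkn1a*, an inhibitor of the cell cycle, was higher in type 2 (162 CPM) and *Scgb1a1*-low cells (96.05 CPM, and 59.6 without the top cell). It was lower in type 1 cells (5.49 CPM, and 0.133 without the top cell) and in *Scgb1a1*-high cells (0.178 CPM, log2 ratio -5.68). *Hes6*, a HES gene that does not act as a Notch effector, had 102.3 CPM in ciliated-marker cells (3 of 12), 47.1 CPM in type 2 cells (4 of 11) and 2.77 CPM in type 1 cells. Without the top cell of each group these *Hes6* levels were 22.98, 1.56 and 0.0871 CPM. *Hes2* had 0 reads in the kept cells.

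Of 5 ciliation genes that Notch is known to hold back, 3 are in the count table. *Foxj1* belongs to the list that chose those cells, so its level there is no result. *Myb*, a regulator of multiciliated cells outside that list, had 219 CPM there (6 of 12) and 0.0865 CPM in type 1 cells. *Gmnc*, an early switch of the same programme, had 9.97 CPM in *Scgb1a1*-high cells, from 1 cell, and 0 reads in the others.

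**Figure D5:**
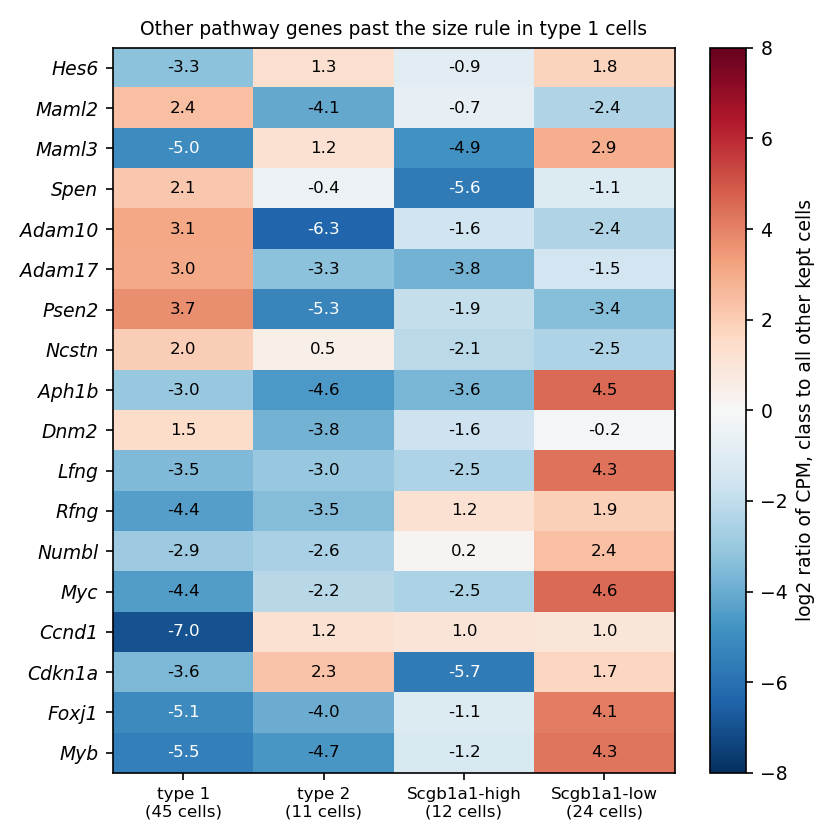
Rows are the 18 other pathway genes called higher (7) or lower (11) in type 1 cells and columns the 4 classes; colour and number give the log2 ratio of CPM in the class to that in all other kept cells, 1 CPM added. *Adam10* stands at 3.07 in type 1 cells and *Ccnd1* at -6.98, and *Lfng*, *Myc*, *Foxj1* and *Myb* are positive in *Scgb1a1*-low cells.

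The sort removed CD31+ and CD45+ cells, and markers of other cell types were given the same look, since endothelial and mural cells carry Notch genes as well. Of 6 endothelial markers, 5 are in the table. Their sum was 0.476 CPM in type 1, 0.309 in type 2 and 2.28 CPM in *Scgb1a1*-low cells, with *Kdr*, *Cldn5* and *Tek* at 0 in these 3 classes. In *Scgb1a1*-high cells the sum was 44.8 CPM, of which *Kdr* made 44.5 and *Cdh5*, *Cldn5* and *Tek* were at 0. The leukocyte marker *Ptprc* had 0 reads in every class. The list that holds it summed to 14867 CPM in type 2 cells, of which 13869 CPM was *Lyz2*, a gene that AT2 cells express too. Of 6 pericyte and smooth muscle markers only *Myh11* and *Tagln* are in the table, and *Tagln* had 209 CPM in the 6 other *Scgb1a1*-low cells. Fibroblast markers, 6 of 7 in the table, summed to 3479 CPM in those cells and to 1998 CPM in basal-marker cells, where nearly all of it was *Dcn* and *Col3a1*, *Vim* and *Pdgfra* were at 0. In type 1, type 2 and *Scgb1a1*-high cells the sum was at most 4.01 CPM. Without the 2 cells high in the fibroblast list, *Notch1* was called higher in *Scgb1a1*-low cells besides *Jag1*.

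For the members with reads in at least 20 kept cells, the genes most alike across the 92 cells were ranked by Spearman correlation of log2(CPM + 1) among 4902 genes. For *Notch2* these were *Snx18* (0.431), *Tmem69* (0.391) and *Zswim6* (0.384). For *Jag1* they were *Arcn1* (0.442) and the axonemal and ciliary genes *Nme5* (0.438) and *B9d1* (0.427). For *Hes1* they were *Aldh1a1* (0.434), *Ube2n* (0.427) and the pseudogene *Rps23-ps2* (0.410), whose reads may belong to its parent gene. These correlations are weak, the counts are sparse, and cells share classes and depth.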

How the data were processed

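Lung cells of 1 mouse were captured on 1 C1 chip. The deposited values are whole-number read counts per gene that were not normalized. Per the submitters' processing notes, Trim Galore, FastQC, HISAT2 (genome GRCm38) and featureCounts made them. Versions, strand setting and molecular identifiers are not given in the sources used here. The members and all lists were chosen with earlier results of these data known. Cells, classes, thinning (to 90000 reads, 1 seed) and the rule of size are as described above, and reads were not scaled by gene length, so levels are not compared between genes. Named are the 9 members, the genes that set the classes, pathway genes called in at least 1 class or belonging to the ligands, receptors and HES or HEY genes, class and cell type markers, and the 3 genes most alike to each member. *Notch4*, *Dll3*, *Dll4*, *Dlk1*, *Hes3*, *Hes5*, *Hes7*, *Hey2*, *Heyl*, *Neurl1b*, *Mfng*, *Aak1*, *Mcidas* and *Ccno* were not analysed here, and some listed pathway genes are not reported here.

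Depth was 91402 to 2170760 reads per cell, and 3 reads over a class was the limit that a count of 0 allows. Median log2 ratios over all genes lie away from 0 in some classes, -1.04 in type 2, -1.10 in *Scgb1a1*-high, 0.17 in *Scgb1a1*-low, -0.45 in ciliated-marker and -1.32 in basal-marker cells. Positions are those of GENCODE vM21. Computations ran in Python 3.11.15 (pandas 2.3.3, numpy 2.4.6, scipy 1.17.1; figures in matplotlib 3.10.9), with size factors from scran 1.30.0 in R 4.3.3 as an alternative. Alternatives changed the mitochondrial limit, the 3 limits of the classes, the thinning, the detection minimum, the library size, the weight of cells, the added CPM, the gene filter, the size of ratio, the use of the top cell, the chip columns and the cells high in several lists.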

Additional observations from a re-analysis of the deposited data

Results flagged for a closer look

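The 49 cells left out for their mitochondrial share held reads of 4 members, more than a count of 0 allows. They comprised 19 type 1, 16 type 2, 1 *Scgb1a1*-high and 13 *Scgb1a1*-low cells by the same limits. *Notch1* stood at 41.5 CPM in them (687 reads in 10 cells, 621 in a single cell), with 0.501 CPM in 3 of 19 type 1 cells. The cell with 621 reads was a type 2 cell, and the 142 CPM of that class (4 of 16 cells) fell to 0.994 CPM without it. *Notch2* stood at 3.14 CPM (52 reads in 6 cells), of which 5 were type 1 cells, at 6.39 CPM (1.74 without the top cell). *Jag1* stood at 12.1 CPM (200 reads in 14 cells), 7 of them *Scgb1a1*-low, at 15.9 CPM (8.96 without the top cell), and 5 type 2, at 30.7 CPM (12.8 without the top cell), where the kept cells had 162 and 98.8 CPM. *Hes1* stood at 668 CPM (11042 reads in 36 cells), with 518 CPM in type 1, 81.4 CPM in type 2 and 1707 CPM in *Scgb1a1*-low cells. Without the top cell these levels of *Hes1* were 266, 4.03 and 1393 CPM, and the order of these 3 classes was that of the kept cells either way. *Notch3*, *Jag2*, *Dll1* and *Hey1* had 0 reads in the removed cells, and *Nrarp* had 1.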

How the results depend on the processing

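The shares of cells, the counts of members called and the log2 ratios of the 5 members in the rule were recomputed in the 4 classes, under 28 settings in all (18 for a share, 21 or 22 for a count or ratio). For the ciliated-marker and basal-marker groups and the other pathway genes, only ratios without the top cell and by chip columns were recomputed. The shares of cells with *Hes1*, a ligand or a receptor and the counts of members gave 392 values. Of these, 367 stayed within the interval of the share or within 1.5 times the count, and 25 moved. For the shares of the other single members, 561 values stayed and 15 moved. Of the log2 ratios of single members 142 moved and 294 stayed within their counting interval, and that of *Jag2* in type 1 cells, which was not called, ran from -4.45 to 2.70. No member called in these classes changed direction. The share of type 1 cells with *Hes1* at equal depth, 62.2%, ran from 47.4 to 88.9% over the settings. It was 78.9% with a mitochondrial limit of 0.10 and 88.9% with all reads. The share of type 1 cells with a ligand, 15.6%, was 4.44% with at least 2 reads and with at least 10 of all reads. With at least 1 of all reads it was 28.9%, where 31.1% had a receptor. In type 2 cells the ligand share was 36.4% at equal depth and 63.6% with all reads. That of *Scgb1a1*-high cells, 16.7%, was 0% with at least 2 reads and in chip columns 11 to 20, and 25% with all reads. Members higher in *Scgb1a1*-low cells numbered 2 in place of 1 with a mitochondrial limit of 0.10 (*Notch1* and *Jag2*, the call of *Jag1* being lost), with equal weight of cells, without the demand on the top cell and without the 2 fibroblast-high cells (*Notch1* and *Jag1* each time) and with no filter on low genes (*Jag1* and *Dll1*), and 0 with a log2 ratio of at least 2. In *Scgb1a1*-high cells 1 member, *Hes1*, became higher in place of 0 with an *Sftpc* limit of 4000 CPM, without the 20 most abundant genes, with scran size factors, with equal weight and without the demand on the top cell. In type 1 cells 0 were higher with a log2 ratio of at least 2 and 2 (*Notch2* and *Jag2*) without the demand on the top cell, and 1, *Notch1*, was lower in place of 2 with a log2 ratio of at least 2, in columns 11 to 20 and without the 16 cells high in more than 1 list. The type 1 call of *Jag1* was also lost with a mitochondrial limit of 0.10. In type 2 cells 0 were higher in columns 1 to 10, and 1, *Hes1*, was lower with 10 CPM added and in columns 11 to 20. The minimum of 10 reads and the run without fibroblast-high cells were chosen after seeing the data. No cell passed both limits, so counting such cells as type 1 changed nothing. No paired analysis was possible because all cells belong to 1 group. In type 1 cells *Hes1* was found in 40 of 45 with all reads and 28 at equal depth, and *Notch2* in 13 both times. Of the cells found with all reads, 11 with *Hes1* and 2 with *Notch2* held only 1 to 3 reads, and thinning used 1 seed. These counts therefore do not show that depth acts differently by gene.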

Other observations

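In type 1 cells the level of *Hes1* was compared between cells with and without a receptor read at equal depth, a split made after the values had been seen. The 13 cells with a receptor, all of them by *Notch2*, had a median of 16.8 CPM of *Hes1* (0 to 1023 CPM), and the 32 cells without had 793 CPM (0 to 4748 CPM). The ranges overlap, and median reads per cell were 435354 and 502540. At least 10 CPM of *Hes1* was reached in 8 of the 13 and 20 of the 32 cells, and at least 100 CPM in 5 and 18. With at least 10 of all reads as the minimum the medians were 169 CPM in 10 cells and 550 CPM in 35 cells. In *Scgb1a1*-high cells the order was the other way, 5321 CPM in 4 cells with a receptor and 348 CPM in 8 without, as in type 2 cells, 382 CPM in 4 with and 5.25 CPM in 7 without. Median reads per cell with and without a receptor were 877306 and 983441 in *Scgb1a1*-high and 881328 and 378529 in type 2 cells. In *Scgb1a1*-low cells the medians were 1347 CPM in 9 with and 1879 CPM in 15 without. No test was made, since all cells come from 1 mouse.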
